A study of Mus musculus with 6 samples.

Results

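The interferon response genes Gbp2, Gbp3, Gbp7, Irf1, Irf7, Irf9, Stat2, Isg15 and Ifit1 were read by symbol from the RNA-seq table of B16F10 cells, an established line of mouse melanoma, and all 9 were found among its 27179 genes. The set had been chosen from the small p-value of Gbp2 in the authors' comparison of the treatments, so its make-up is no evidence about the treatment. RNA was sequenced from 6 wild-type cultures, 3 given 0.01% OLO (olive oil) and 3 given 0.01% OZO (ozonated olive oil), for 6 h each. The values used here are the authors' means over all 6 libraries, which hold OLO and OZO cultures together. No level of a named culture, no SD between cultures and no difference between OZO and OLO is therefore given. After scaling, a library held 19641946 reads (geometric mean over the 6), and a level of 1 CPM, 1 read in 1000000, amounted to 19.6 reads. A read here is the unit the authors counted, which may be a read of 1 fragment end or a whole fragment.

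Interferons are secreted proteins that warn cells of infection. Type I interferons act through a receptor whose kinases, JAK1 and TYK2, switch on STAT2, which joins IRF9 in a complex that binds the interferon-stimulated response element (ISRE) of target genes. Interferon gamma acts through the gamma-activated site (GAS) of its target genes, such as those of IRF1 and many guanylate-binding proteins. In melanoma these pathways are known above all for their part in how immune cells see a tumour.

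The promoter sequences show what most of the 9 genes share apart from their symbols in the set. Windows from 250 bases before to 50 bases after a RefSeq start site (GRCm38.p6) were available for all 9 genes, 12 windows in all. The ISRE core, searched as GAAANNGAAA on both strands, was found in 6 of the 9 genes, against 3.99% of the 27025 genes with such a window. A GAS core, TTCNNNGAA, which reads the same on both strands, was found in 2 of the 9 genes, against 9.55% of all genes. Gbp2, Gbp3, Gbp7, Stat2, Isg15 and Ifit1 held the ISRE core, and Irf1 and Gbp7 held the GAS core. Neither set of letters was found in the windows of Irf7 and Irf9. The stretches below run 5′ to 3′ on the strand of the gene, with the ISRE core, or the GAS core where named, in capitals; overlapping cores form 1 run of capitals.
Gbp2, chr3:142620594-142620623, plus strand: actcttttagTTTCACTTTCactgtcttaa
Gbp3, chr3:142559989-142560024, plus strand: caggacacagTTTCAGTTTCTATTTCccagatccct
Gbp7, chr3:142530273-142530302, plus strand: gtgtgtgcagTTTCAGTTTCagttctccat
Ifit1, chr19:34640775-34640823, plus strand: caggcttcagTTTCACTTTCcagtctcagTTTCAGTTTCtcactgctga
Isg15, chr4:156200865-156200906, minus strand: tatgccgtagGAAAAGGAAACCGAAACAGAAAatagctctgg
Stat2, chr10:128270266-128270295, plus strand: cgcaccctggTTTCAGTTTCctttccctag
Irf1 (GAS), chr11:53769914-53769942, plus strand: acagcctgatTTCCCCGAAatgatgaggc
Gbp7 (GAS), chr3:142530220-142530267, plus strand: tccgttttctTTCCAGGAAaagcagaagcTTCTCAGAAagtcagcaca

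In the 3 Gbp genes the first ISRE core began 59 (Gbp2), 45 (Gbp3) and 53 (Gbp7) bases before the start site. Isg15 held 3 overlapping cores and Ifit1 held 2 separate ones. The core of Stat2 lay farthest out, 222 bases before the start. A match of letters is a description of the sequence, and binding was not measured.

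All 9 genes were expressed above 1 CPM on average. Levels of different genes are compared per kb of merged exons, since a longer transcript yields more reads. These lengths are from GENCODE and need not be those of the gene models the authors counted on, so levels per kb are approximate. For Irf7 the merged exons span 3776 bases and the longest coding transcript 2237, and for Irf9 5386 and 2959. Per kb of merged exons, Isg15 was highest at 8.73 CPM per kb and Irf7 lowest at 0.277 CPM per kb. The ratio was 31.5, or 18.6 per kb of the longest coding transcript. The order from high to low was Isg15, Ifit1, Stat2, Irf1, Irf9, Gbp3, Gbp2, Gbp7 and Irf7. The steps between neighbours ran from 0.15, between Irf1 and Irf9, to 1.59, between Gbp7 and Irf7, on the log2 scale of levels per kb of merged exons. Per kb of the longest coding transcript the order was the same, but the steps ran from 0.023, between Ifit1 and Stat2, to 1.01, between Irf9 and Gbp3. Without values of single cultures it cannot be said which of these steps exceed the spread between cultures.

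**Figure D1:**
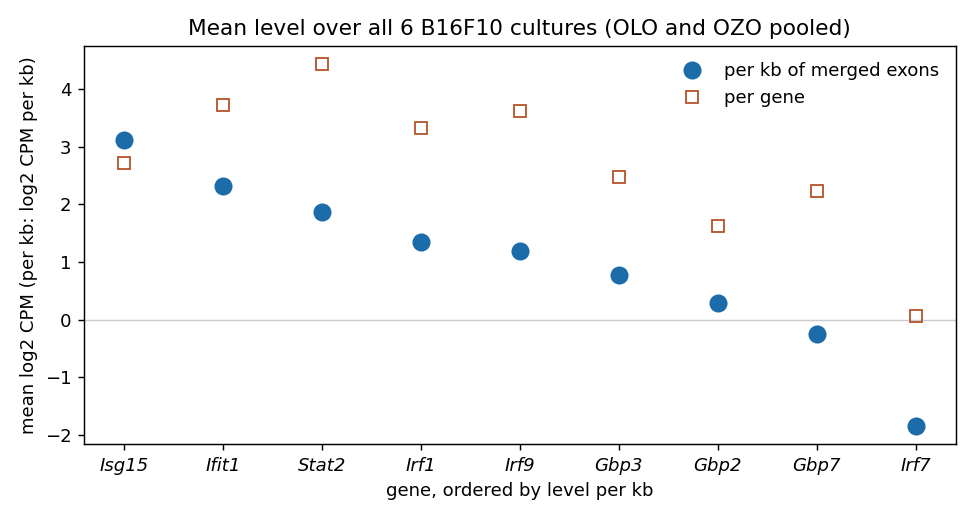
Mean log2 CPM of the 9 genes over all 6 cultures, per gene (open squares) and per kb of merged exons (filled circles), ordered by the level per kb. Isg15 is highest per kb at 3.13 and Irf7 lowest at -1.85, and no error bars are drawn because the values are the authors' means over OLO and OZO libraries.

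Stat2 and Irf9 encode the parts of the ISRE-binding complex that are specific to type I and type III interferon signalling. Stat2 averaged 21.7 CPM per gene, the most reads of the set, and 3.65 CPM per kb. At least 2549 reads over the 6 libraries stood behind its mean. Irf9 averaged 12.3 CPM per gene and 2.29 CPM per kb, 0.68 below Stat2 on the log2 scale of levels per kb. Stat2 lies on chromosome 10 (GENCODE release M21 on GRCm38, 128270559 to 128292849, plus strand) and Irf9 on chromosome 14 (55603571 to 55610030, plus strand), where Rnf31 overlaps it on the same strand.

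Irf1 and Irf7 encode transcription factors of the same family that stood far apart. IRF1 drives many interferon gamma targets, and IRF7 amplifies the production of type I interferon. Irf1 averaged 10.1 CPM per gene and 2.54 CPM per kb. Irf7 averaged 1.05 CPM per gene and 0.277 CPM per kb, so that Irf1 was 9.15 times as high per kb. The mean of Irf7 rested on at least 120 reads over the 6 libraries, the fewest of the 9 genes, and that of Irf1 on at least 1185. Irf7 (chromosome 7, 141262706 to 141266481, minus strand) overlaps Phrf1 on the other strand, and Irf1 (chromosome 11, 53770014 to 53778374, plus strand) overlaps Gm17334 on the other strand. The library kit keeps strand, but whether the counting used it is not stated, so reads of these partners could enter both values.

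Isg15 and Ifit1 encode antiviral effectors. ISG15 is a ubiquitin-like protein that is attached to other proteins, and IFIT1 binds RNA whose cap marks it as foreign. Isg15 averaged 6.60 CPM per gene, which its short transcript of 756 bases turns into 8.73 CPM per kb. Ifit1 averaged 13.3 CPM per gene and 5.00 CPM per kb. Isg15 was thus lower per gene but 1.74 times as high per kb. Ranked per kb among the 19227 genes with reads and an exon model, Isg15 stood above 73.4% and Ifit1 above 64.1% of them. Isg15 lies on chromosome 4 (156199424 to 156200818, minus strand) and Ifit1 on chromosome 19 (34640871 to 34650009, plus strand). Of the 150-base stretches of Ifit1 transcripts, 1.24% also occur in its relative Ifit1bl2, so few reads of Ifit1 could be split.

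Gbp2, Gbp3 and Gbp7 encode guanylate-binding proteins, large GTPases that gather on the membranes around microbes inside a cell, and lie in 1 cluster on the plus strand of chromosome 3, where Gbp2b (142594847 to 142619179) stands between Gbp3 and Gbp2. Their coordinates in GENCODE M21 are 142620602 to 142638008 for Gbp2, 142560026 to 142573209 for Gbp3 and 142530342 to 142550149 for Gbp7. GENCODE begins Gbp2 ahead of the RefSeq start, inside the stretch printed above. Gbp3 was the highest of the 3 at 1.70 CPM per kb and 5.56 CPM per gene. Gbp2 averaged 1.22 CPM per kb and 3.08 CPM per gene, and Gbp7 averaged 0.836 CPM per kb and 4.69 CPM per gene. Gbp3 was thus 1.39 times as high as Gbp2 and 2.04 times as high as Gbp7 per kb. Per gene, the order of Gbp2 and Gbp7 was the opposite, since the exons of Gbp7 span 5614 bases and those of Gbp2 only 2516.

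The mean of Gbp2 rested on at least 359 reads over the 6 libraries, that of Gbp3 on at least 652 and that of Gbp7 on at least 550. None of the 150-base stretches of Gbp2 or Gbp3 transcripts occurs in another gene, whereas 8.77% of those of Gbp7 occur in Gm43802, a gene model that overlaps it. For Gbp2 the unrounded mean says a little about the spread. Because voom adds 0.5 reads to each whole count, the mean fixes the product of (2 × reads + 1) over the libraries, and for Gbp2 this product has 211 as a prime factor. At least 1 library therefore held 105 or more reads of Gbp2, against a geometric mean of reads plus 0.5 of 60.4 over the 6 libraries and of at most 54.1 over the other 5. These are reads before any scaling, and neither the depth of that library nor the culture it came from is known from the mean.

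Compared with all genes, the 9 genes were neither silent nor abundant. Per kb of merged exons, the median gene with reads had a log2 level of 0.55, and 6 of the 9 genes were above it. The count was 8 of 9 per gene and 5 of 9 per kb of the longest coding transcript, where Gbp3 also lay below the median. Gbp2, Gbp7 and Irf7, with log2 levels per kb of merged exons of 0.29, -0.26 and -1.85, were below it. Gbp2 stood above 48.6% of the genes per kb and Irf7 above 37.9%. Among all 27179 genes of the table, 43.7% reached 1 CPM per gene.

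**Figure D2:**
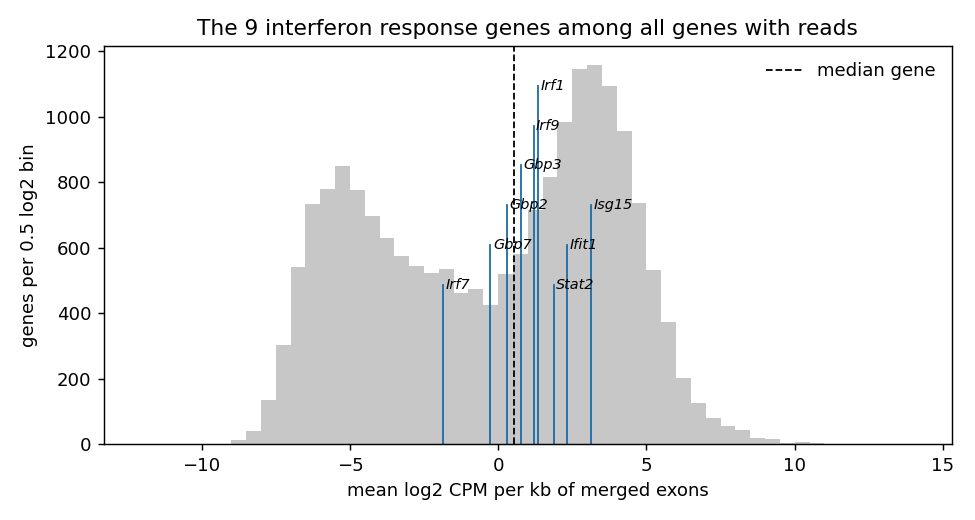
Number of genes by mean log2 CPM per kb of merged exons, over the 19227 genes with reads and an exon model, in bins of 0.5. Blue lines mark the 9 genes, at heights chosen only to separate their names, and the dashed line marks the median gene at 0.55; Isg15 stands farthest to the right at 3.13 and Irf7 farthest to the left at -1.85.

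The label of the cultures was checked against markers of cell types. All 7 melanocyte lineage markers were abundant, from 109 CPM for Sox10 to 7052 CPM for Dct. Of 6 leukocyte markers 2 reached 1 CPM, Cd68 with 5.47 CPM and Lyz2 with 1.78 CPM per gene. Per kb, Cd68 had 4.35 and Lyz2 1.36 CPM, both above the 1.22 of Gbp2. Of the other 4, Itgam averaged 0.271 CPM per gene, and Ptprc (0.0702 CPM), Adgre1 (0.0441 CPM) and Cd3e (0.0367 CPM) averaged less than 3 reads in a library of mean size (0.153 CPM). The 6 markers summed to 7.68 CPM, and the part of other cell types in the levels of the 9 genes was not tested. Of 4 fibroblast markers 2 reached 1 CPM, Pdgfra with 3.28 and Col1a1 with 1.70 CPM per gene, as did 1 of 3 endothelial markers, Pecam1 with 1.21 CPM, and 0 of 3 keratinocyte markers.

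The pathway around the 9 genes was described with lists by role, which held 104 genes of the table with the 9 included. Of the 95 others, 76 had reads and 47 (49.5%) reached 1 CPM per gene, against 43.7% of all genes of the table. All the listed interferon genes themselves lay below 1 CPM. Of 21 interferon genes of types I, II and III, 17 had no read in any library, among them Ifnb1 and Ifng, and 0 reached 1 CPM. Stretches that the interferon genes may share with each other were not searched for, so reads could have been lost or split. The highest, Ifnab, averaged 0.112 CPM per gene, still below 3 reads in a library of mean size. No reads in a library of mean size allow a level of up to 0.153 CPM, and this limit covers counting error only.

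All 6 receptor chains reached 1 CPM per gene, with Ifnar1, a chain of the type I receptor, highest at 15.4 CPM per kb. Ifnlr1, the chain specific to type III interferons, was lowest at 1.01 CPM per gene and 0.241 CPM per kb, below the 0.277 of Irf7. All 5 JAK and STAT relay genes listed here, Stat2 and Irf9 among them, reached 1 CPM, and the kinase Jak1 was highest at 28.2 CPM per kb. The other two kinases, Jak2 with 12.2 and Tyk2 with 3.29 CPM per kb, stood beside 3.65 for Stat2 and 2.29 for Irf9. Among the 9 interferon regulatory factors, 6 reached 1 CPM, and Irf3, which starts the production of interferon, was highest at 6.53 CPM per kb. Irf1 and Irf9 stood below Irf3 and Irf2 (2.80 CPM per kb), and Irf7 stood below these 4.

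**Figure D3:**
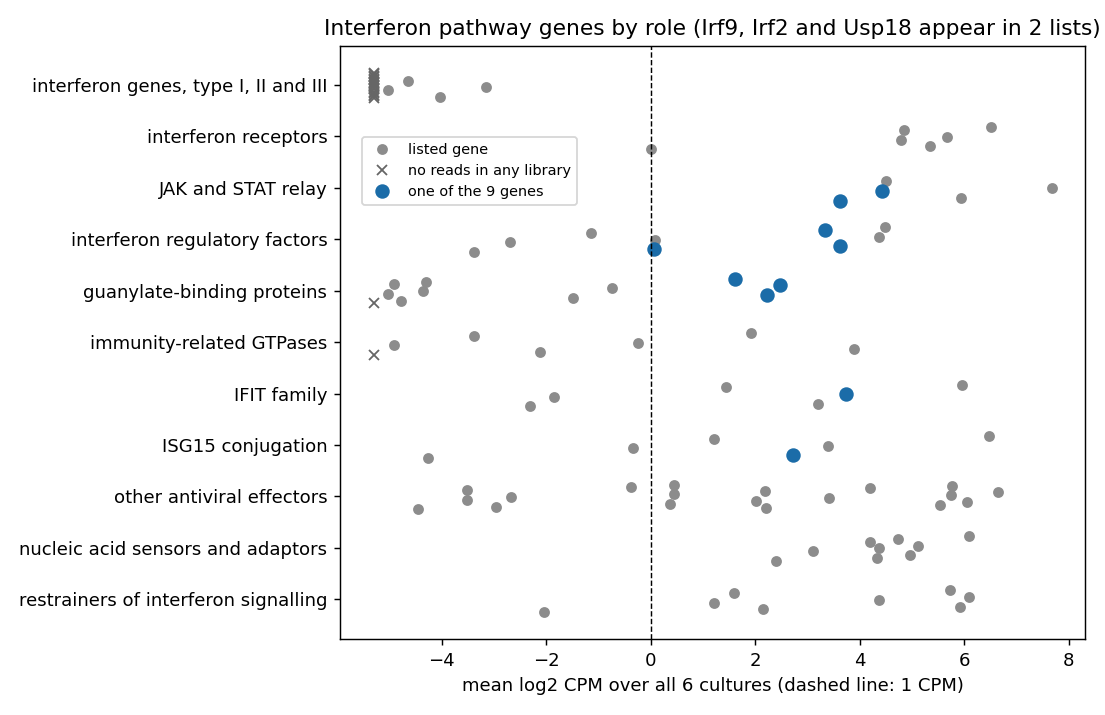
Mean log2 CPM per gene of the genes of 11 lists by role, over all 6 cultures, with 1 point per gene, the 9 genes in blue and crosses for genes with no read in any library; the dashed line marks 1 CPM. Receptors and relay genes lie at or to the right of 1 CPM, the interferon genes lie far to the left, and of the guanylate-binding proteins only the 3 described here lie to the right.

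Effector families were uneven. Of 11 guanylate-binding proteins, 3 (27.3%) reached 1 CPM per gene, namely Gbp2, Gbp3 and Gbp7. Gbp6 averaged 0.599 CPM per gene and 0.101 CPM per kb, and Gbp11 averaged 0.359 CPM per gene and 0.133 CPM per kb. Gbp2b, Gbp4, Gbp5, Gbp9 and Gbp10 averaged from 0.0306 to 0.0508 CPM, with 1 read in 1 library for Gbp10 and 2 reads in 1 library for Gbp4, and Gbp8 had no reads. For Gbp6 and Gbp10, 59.1% and 66.6% of the 150-base stretches occur in other genes, so their levels are uncertain. Most of this sharing was with a single gene model, Gm43302 (53.7% for Gbp6 and 57.3% for Gbp10).

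In the IFIT family 4 of 6 genes reached 1 CPM, and Ifit2 was highest at 15.8 CPM per kb, against 5.00 for Ifit1 and 5.31 for Ifit3. Stretches shared between Ifit3 and Ifit3b were not searched for, so the level of Ifit3 is uncertain. Ifit1bl1 and Ifit1bl2, the nearest relatives of Ifit1, averaged 0.203 and 0.277 CPM per gene. Of the 6 genes of ISG15 conjugation, 4 reached 1 CPM. Herc6, the ligase that joins ISG15 to its targets in mice, was highest at 9.60 CPM per kb, against 8.73 for Isg15. Uba7, the enzyme that activates ISG15, averaged only 0.790 CPM per gene, and Usp18, which removes ISG15, averaged 2.31 CPM per gene.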

How the data were processed

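According to the methods and the submitters' processing notes, reads of 150 bases from both fragment ends were aligned by the authors to mm10 with HISAT2 (2.1.0), counted per gene with featureCounts (2.1.1) and analysed with limma-voom (3.58.1). Strand use in counting is not given in the sources used here. The deposited table gives, per gene, the authors' mean log2 CPM over all libraries, and this mean was analysed. Its other columns (log2 fold change, moderated statistic, p-values and log odds of the authors' own comparison) were not used. The tests planned for counts or single libraries were not run.

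The lowest mean, shared by 6025 genes, was taken as 0 reads plus the 0.5 that voom adds, which gave the library size. CPM values are thus geometric means with 0.5 reads added. The product of (2 × reads + 1) rounded to an odd number for all 10960 genes with reads and a product under 10000000000000, none of them more than 0.334 from the whole number, and the step was tested on simulated data. Minimum read totals follow from the geometric mean being at most the arithmetic mean. The depth of each library is unknown. Exon lengths were those of GENCODE M21, matched by Ensembl identifier for 23882 genes. A shared 150-base stretch is an exact match to a transcript of another gene on either strand. Such stretches were searched for the 9 genes and the guanylate-binding proteins only.

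Genes named were the 9 genes, the highest member per kb of each list by role, its members without reads where these were 5 or fewer, and all guanylate-binding proteins; other genes were named after their values were seen. Some planned list genes are not reported here. Of the 107 symbols kept in the lists by role, 3 (Ddx58, Mb21d1 and Tmem173) are older names of genes also listed under their current ones. The 9 genes and the lists were chosen with earlier results of these data known. Alternatives changed the genes ranked, the length and the CPM limit. Python 3.11.15, numpy 2.4.6, pandas 2.3.3, scipy 1.17.1 and matplotlib 3.10.9 were used.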

Additional observations from a re-analysis of the deposited data

How the results depend on the processing

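No paired analysis was possible because the mean analysed here pools all libraries. For the same reason no test was made, and edgeR and DESeq2, other count filters, other pseudocounts and leaving out each culture were not run. The median rank of the 9 genes, as the share of genes with a lower level per gene, was 55.3% among genes with reads. It was 65.2% among all genes of the table, which adds genes without reads below, 54.0% among genes with a symbol and reads, 54.2% per kb of merged exons and 53.4% per kb of the longest coding transcript, an alternative chosen after seeing the data. The order of the 9 genes per kb was the same with either length, while the ratio of the highest to the lowest was 31.5 with merged exons and 18.6 with the longest coding transcript. Over the 9 genes the rank ran from 37.9% to 73.4% per kb of merged exons and from 37.7% to 64.1% per kb of the longest coding transcript. Of the 104 listed genes, 56 reached 1 CPM, 60 reached 0.5 CPM and 50 reached 2 CPM.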

Other observations

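All 9 genes listed as sensors of foreign nucleic acid and their adaptors reached 1 CPM per gene, from 5.27 CPM for Dhx58 to 68.5 CPM for Tbk1, the kinase that activates IRF3, which was also the highest per kb at 17.5 CPM. Of 8 restrainers of interferon signalling, 7 reached 1 CPM, and the phosphatase gene Ptpn2 was highest at 21.9 CPM per kb. The exception was Socs1, an inhibitor of JAK kinases, with 0.244 CPM per gene.

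Of 7 immunity-related GTPases, relatives of the guanylate-binding proteins, 2 reached 1 CPM, Irgm1 with 14.8 and Irgm2 with 3.79 CPM per gene, and Tgtp2 had no reads. Of 19 other antiviral effectors 13 reached 1 CPM. Ifitm3, which blocks the entry of viruses, was highest at 79.2 CPM per kb, and its level per gene was 53.7 CPM. Of the oligoadenylate synthetases, Oas1a and Oas1b averaged 1.29 and 1.36 CPM per gene, and Oas1g, Oas2 and Oas3 averaged 0.129, 0.156 and 0.0460 CPM.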
